A study of Mus musculus with 2 samples.

Results

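The 44 imprinted genes described here were taken by symbol from a list of genes known as imprinted in at least some tissues of the mouse. Whether each is imprinted in the cells used here was not tested. All 44 were found among 42462 annotated genes. They comprise 38 protein-coding and 6 long noncoding genes. They were matched by gene symbol, from a list made with earlier results of these libraries known. The RNA was total RNA of mouse HSC (hematopoietic stem cells), which reside in bone marrow, renew themselves and supply every blood lineage. Donor mice were adult C57BL/6J males of 5 to 6 weeks. All samples formed 1 group, of 2 libraries labelled biological replicates 1 and 2, each made from 100 ng of RNA after depletion of ribosomal RNA, with the ScriptSeq kit. No treatment or altered allele is given in the labels. The labels give the replicates separate biosamples and the same strain entry, and no source used here says whether separate animals were taken. The spread between them may therefore be technical. With 1 group, the comparisons are between genes within each library and between the replicates.

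Imprinted genes carry a mark of parental origin, usually DNA methylation placed in egg or sperm at an imprinting control region, and are then expressed mainly from the maternal or the paternal copy. Many lie in clusters in which a long noncoding RNA is expressed from 1 parental copy and the protein-coding neighbours from the other, and many regulate growth. In adult HSC the H19-Igf2 and Dlk1-Meg3 loci are known for their part in keeping the cells quiescent. C57BL/6J is an inbred strain and the deposited tables are summed per gene or transcript, so the parental copy behind each value was not measured, and the parent named for a gene below is background.

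Promoter sequences of Kcnq1ot1, Gnas and Grb10 are shown because these genes gave the most counts, a locus with several alternative starts, and a start that differed between replicates. Nap1l5 is shown as an example of a member whose promoter holds a motif bound by the imprint protector ZFP57 but which had 4 counts in 1 library and 0 in the other. Each is the RefSeq window from 250 bases before to 50 bases after an annotated start, 5′ to 3′ along the gene, on GRCm38.p6. In the first 5 sequences capitals mark CpG, the dinucleotide that carries the methylation.
Kcnq1ot1, chr7:143296498-143296797, minus strand: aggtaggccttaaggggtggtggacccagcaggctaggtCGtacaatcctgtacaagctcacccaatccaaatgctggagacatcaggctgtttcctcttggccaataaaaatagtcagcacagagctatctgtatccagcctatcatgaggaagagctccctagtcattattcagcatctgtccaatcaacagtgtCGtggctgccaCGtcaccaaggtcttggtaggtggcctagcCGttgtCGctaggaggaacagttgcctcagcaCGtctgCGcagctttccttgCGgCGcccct
Gnas, start of the exon 1A class, chr2:174327499-174327798, plus strand: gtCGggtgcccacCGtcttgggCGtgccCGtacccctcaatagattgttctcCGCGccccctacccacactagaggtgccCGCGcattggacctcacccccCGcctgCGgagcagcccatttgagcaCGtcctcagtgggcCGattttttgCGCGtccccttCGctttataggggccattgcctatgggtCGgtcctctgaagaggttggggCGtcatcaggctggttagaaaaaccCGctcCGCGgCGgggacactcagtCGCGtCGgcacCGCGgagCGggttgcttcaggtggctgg
Gnas, start of the Gs alpha class, chr2:174329756-174330055, plus strand: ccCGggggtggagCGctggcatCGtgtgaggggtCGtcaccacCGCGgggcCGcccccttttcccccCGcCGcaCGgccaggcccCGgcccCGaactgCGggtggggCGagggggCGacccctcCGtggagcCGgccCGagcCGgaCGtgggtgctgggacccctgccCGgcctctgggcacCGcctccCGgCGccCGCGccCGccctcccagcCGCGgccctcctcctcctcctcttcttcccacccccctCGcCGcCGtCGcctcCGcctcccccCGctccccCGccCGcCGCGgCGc
Grb10, upstream start, chr11:12037371-12037670, minus strand: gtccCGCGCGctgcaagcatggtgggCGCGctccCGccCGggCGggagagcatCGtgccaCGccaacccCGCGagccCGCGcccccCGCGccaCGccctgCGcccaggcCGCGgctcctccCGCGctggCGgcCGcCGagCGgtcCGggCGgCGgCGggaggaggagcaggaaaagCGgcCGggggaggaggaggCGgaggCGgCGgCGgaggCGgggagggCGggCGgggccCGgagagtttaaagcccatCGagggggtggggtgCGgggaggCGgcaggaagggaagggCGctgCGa
Grb10, downstream start, chr11:12027922-12028221, minus strand: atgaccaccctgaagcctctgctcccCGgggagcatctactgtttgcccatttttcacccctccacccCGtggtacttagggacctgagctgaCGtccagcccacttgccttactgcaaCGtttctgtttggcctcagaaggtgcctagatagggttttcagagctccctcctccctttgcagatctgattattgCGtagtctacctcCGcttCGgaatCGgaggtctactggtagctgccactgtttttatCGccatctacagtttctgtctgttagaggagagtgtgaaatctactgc
In the Nap1l5 window capitals mark TGCCGC or its reverse complement GCGGCA, which was searched on both strands and occurs 2 times.
Nap1l5, chr6:58907077-58907376, minus strand: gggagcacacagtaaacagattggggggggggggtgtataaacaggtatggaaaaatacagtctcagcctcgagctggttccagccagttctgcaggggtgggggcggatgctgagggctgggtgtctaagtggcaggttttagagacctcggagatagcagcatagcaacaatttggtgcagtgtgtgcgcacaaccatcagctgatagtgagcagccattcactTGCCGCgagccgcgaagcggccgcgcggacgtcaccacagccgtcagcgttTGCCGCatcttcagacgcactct
The Kcnq1ot1 window held 9 CpG, the Gnas windows 27 and 40, the upstream Grb10 window 45 and the downstream Grb10 window 9.

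Windows were given for 35 of the 44 genes, 54 windows in all. The median was 13 CpG per window in the members and 7 over all 32851 windows of the table. For members detected in both libraries, at 1 TPM (a level per transcript length, defined with the levels) or more, the window richest in CpG held a median of 23 CpG (12 genes, range 9 to 48), against 13 in the other members (23 genes, range 0 to 29) and 8 over all genes. All genes were not split by detection, so the contrast cannot be called particular to the members. TGCCGC or GCGGCA occurred in 14 of the 54 member windows, 25.9%, and in 11.6% of all windows. Among the 14, Snrpn and Snurf have the same window and the Mest windows overlap. Per gene, 13 of the 35 members had such a window, beside 13.1% of all genes in the table. Both strings hold a CpG, and no share was adjusted for the CpG number of the windows. The 13 members included Commd1, Copg2 and Grb10, which were detected, and 10 that were not, among them Mest, Nnat, Plagl1, Meg3 and Snrpn. These are matches of letters and say nothing of binding in these cells.

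Replicate 1 held 27901074 counts and replicate 2 held 48490188. The effective lengths implied a mean fragment length of 193 nucleotides in replicate 1 and 245 in replicate 2. All 8 HSC marker genes were detected, with a summed level of 288.43 TPM in replicate 1 and 327.68 in replicate 2. Markers of other cells differed between the libraries. For the 7 neutrophil genes the sum was 3033.71 TPM in replicate 1 against 1120.66 in replicate 2, and 6 of these genes were apart by the rule given below. The 5 monocyte and macrophage genes summed to 363.77 and 168.11 TPM, with 3 apart, and the 9 erythroid genes to 117.16 and 235.76 TPM, with 4 apart. The 10 stromal and osteolineage genes summed to 5.47 and 7.16 TPM, with Col3a1 and Lum at 0 counts and Pdgfrb and Bgn detected. The 5 megakaryocyte genes summed to 13.86 and 18.51 TPM, the 5 endothelial genes to 13.92 and 16.96 with Cdh5 at 0, and the 4 T cell genes to 1.67 and 1.23 with Trac at 0. The part of these cells in the results was not tested, and in bulk RNA fewer cells of a type and less RNA per cell cannot be told apart.

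Levels are given in TPM, in which counts are divided by effective transcript length and scaled to a constant sum, so that genes can be compared. A gene was called detected at 1 TPM or more in both libraries. By this rule 16 of the 44 imprinted genes were detected, beside 24.0% of all annotated genes. They were 15 of the 38 coding members, beside 44% of protein-coding genes, and 1 of the 6 noncoding members, Kcnq1ot1, beside 3.85% of long noncoding genes. Another 16 had counts but stayed below 1 TPM in at least 1 library. The remaining 12 had 0 counts in both libraries and were all coding, beside 35.3% of protein-coding genes without a count. The median member lay at 0.295 TPM in replicate 1 and 0.285 in replicate 2, and the median protein-coding gene at 0.51 and 0.53. Of the 21 members known as maternally expressed 9 were detected, as were 6 of the 22 known as paternally expressed and Gnas, whose transcripts differ in parental origin.

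The RNA of the group was concentrated in a few genes. Gnas, Cd81 and Nap1l4 held 61.8% of the summed member TPM in replicate 1 and 64.7% in replicate 2. By counts, which grow with transcript length, Kcnq1ot1 led, with 34.3% and 28.8% of all member counts. Together the members took 0.167% of the counts of replicate 1 and 0.163% of those of replicate 2.

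**Figure D1:**
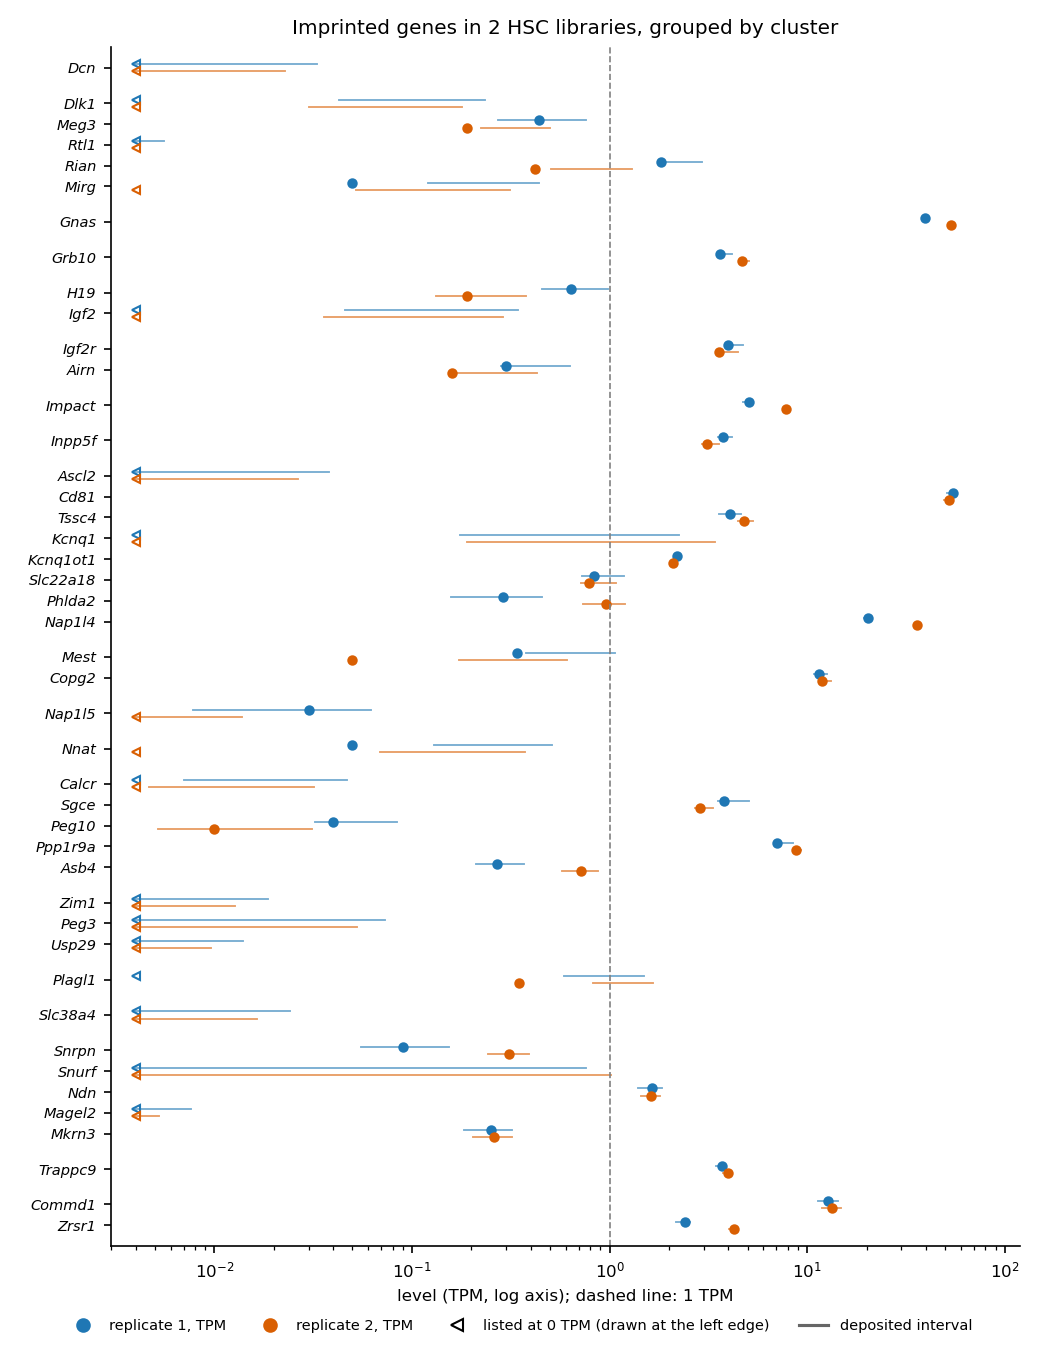
Level of each of the 44 imprinted genes in TPM on a log axis, grouped by cluster, in replicate 1 (blue) and replicate 2 (orange). Lines are the deposited intervals of about 95%, open triangles at the left edge are genes listed at 0, and the dashed line marks 1 TPM, which 16 genes reach in both libraries.

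The Kcnq1 cluster on chromosome 7 had 8 members, 4 of them detected. Its noncoding RNA Kcnq1ot1 (chr7:143203458-143296549) starts inside Kcnq1 on the opposite strand, is paternally expressed and silences neighbours on the same chromosome copy. Kcnq1ot1 had 16001 counts in replicate 1 and 22854 in replicate 2, more than any other member. Because its effective length was 84203 nucleotides in replicate 1, these counts gave only 2.20 and 2.09 TPM, a mean of 2.15 ± 0.0778 (SD, n = 2). The libraries differed 1.05-fold, with intervals apart. The host Kcnq1 (chr7:143106362-143427042), a potassium channel, had 0 counts in both. Its deposited intervals nevertheless ran from 0.174 to 2.25 TPM in replicate 1 and from 0.189 to 3.43 in replicate 2. Among its transcripts, Kcnq1-205, 182 nucleotides long, had the highest upper bounds, at 1.36 and 2.32 TPM. Kcnq1-201, 3029 nucleotides long, had upper bounds of 0.0121 and 0.00817 TPM. By the intervals of the whole genes, Kcnq1 and Kcnq1ot1 could not be ordered. No source used here says whether counting used strand, and without it reads of overlapping genes such as this pair cannot be told apart.

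The genes of highest level lay to either side of Kcnq1ot1. Cd81 (chr7:143052739-143067934), a tetraspanin of the cell surface, had 54.83 TPM in replicate 1 and 52.05 in replicate 2, the highest mean of the 44 at 53.4 ± 1.97. Nap1l4 (chr7:143513579-143549106), a histone chaperone of the nucleosome assembly protein family, had 20.45 and 35.92 TPM. It was 1.75-fold higher in replicate 2 and its intervals did not overlap. Tssc4 (chr7:143069249-143071093), a gene next to Cd81 whose product takes part in spliceosome assembly, had 4.09 and 4.82 TPM. Cd81 exceeded Tssc4 13.1-fold in replicate 1 and 10.6-fold in replicate 2, with intervals apart in both.

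The other members were low. Slc22a18, an organic cation transporter, had 0.83 TPM in replicate 1 and 0.79 in replicate 2. Phlda2, which restrains placental growth, had 0.29 and 0.96 TPM from 14 and 64 counts. The order of these neighbours turned between the libraries. Ascl2, a transcription factor of trophoblast and intestinal stem cells, had 0 counts in both. Nap1l4 stood above Phlda2 in both libraries with intervals apart, at a mean log2 ratio of 5.40 with 0.1 TPM added, 4.15 with 1 TPM added and 7.45 by CPM, which is counts scaled to the library total. Among annotated neighbours outside the 44, Tspan32 had 23.21 and 19.19 TPM, and Cdkn1c, the cell cycle inhibitor p57 known to hold HSC in quiescence, had 1.74 and 1.08 TPM. The plot of the Kcnq1 cluster sets these levels against position.

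**Figure D2:**
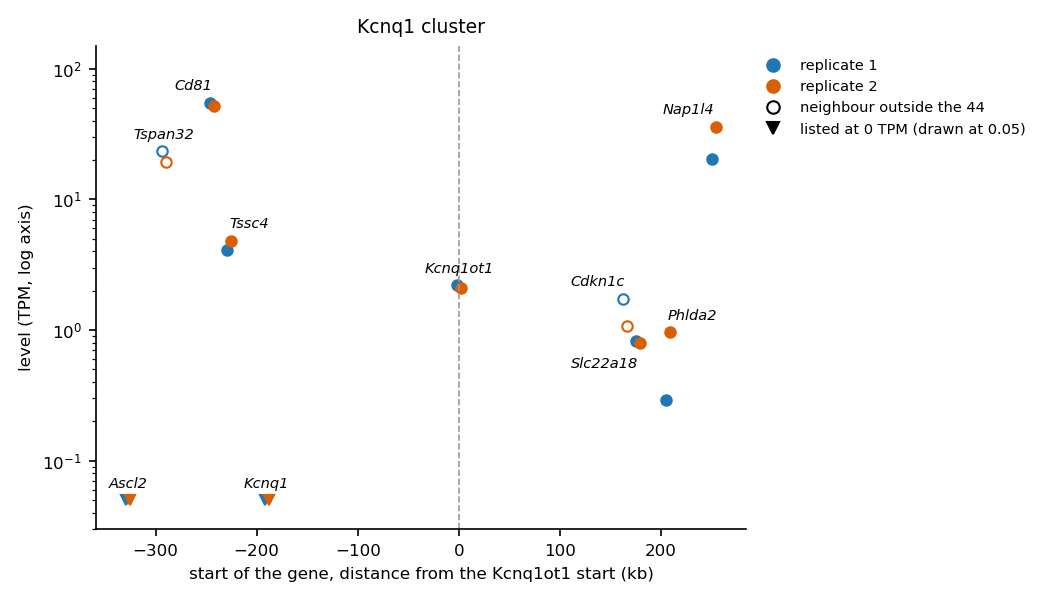
Level in TPM (log axis) of the genes of the Kcnq1 cluster against the distance of their start from the Kcnq1ot1 start in kb, in replicate 1 (blue) and replicate 2 (orange); open symbols are neighbours outside the 44. Cd81 and Nap1l4, 244 kb before and 253 kb after the Kcnq1ot1 start, are higher than the members between them, and Kcnq1 and Ascl2 are listed at 0.

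The H19-Igf2 cluster, also on chromosome 7, was low. Its noncoding RNA H19 (chr7:142575529-142578143), maternally expressed, had 43 counts in replicate 1 and 14 in replicate 2, or 0.64 and 0.19 TPM. Its intervals, 0.455 to 0.986 and 0.132 to 0.377 TPM, did not overlap, but its mean of 0.415 TPM lay below the minimum at which replicates were compared. Igf2, the growth factor on the paternal side, had 0 counts in both, where 3 counts would have been 0.0192 TPM in replicate 1 and 0.0132 in replicate 2. Its deposited intervals lay above that, at 0.0461 to 0.345 and 0.0359 to 0.290 TPM, and overlapped those of H19 in replicate 2, so the pair was not ordered. Such floors and intervals cover counting and assignment error only.

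Igf2r (chr17:12682406-12769664), the maternally expressed receptor that takes IGF2 to the lysosome, had 3.98 TPM in replicate 1 and 3.58 in replicate 2. Its antisense RNA Airn, paternally expressed and needed to silence Igf2r on that copy, had 29 and 24 counts, or 0.30 and 0.16 TPM. Igf2r exceeded Airn in both libraries with intervals apart, 10.2-fold in replicate 1 and 14.2-fold in replicate 2 with 0.1 TPM added to each level. The size of this ratio rests on that choice and on the division by length: its mean log2 value was 3.59, against 1.96 with 1 TPM added and 6.84 by CPM. Both libraries thus held receptor RNA and few counts on the annotated Airn transcripts. Airn-205, which starts 74.6 kb from the first Airn start and beyond Igf2r, took 24 counts in each library. Where Airn overlaps Igf2r on the other strand, the limit given above for Kcnq1 holds. Airn spans 119 kb and its annotated transcripts are 435 to 1375 nucleotides long, so its level and the ratio cover those transcripts only.

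Of 16 other genes of the IGF axis, 4 were detected. They were Igfbp4, a secreted IGF-binding protein, with 23.92 and 34.05 TPM, the receptor Igf1r with 6.06 and 5.43, the receptor Insr with 2.63 and 2.55, and the adaptor Irs2 with 2.67 and 2.20. None was apart between replicates. Grb14, Igfbp1, Igfbp2 and Igfbp3 had 0 counts in both libraries.

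Grb10 (chr11:11930508-12038683), an adaptor that dampens insulin and IGF1 receptor signalling, had 3.64 TPM in replicate 1 and 4.70 in replicate 2. The level was 1.28-fold higher in replicate 2, with intervals apart. The transcripts behind it differed more. Grb10-201, from the upstream start whose window held 45 CpG, had 2.08 TPM in replicate 1 and 0.88 in replicate 2, or 57.2% and 18.7% of the gene. Grb10-203, from the downstream start whose window held 9 CpG, had 1.25 and 3.71 TPM, or 34.4% and 79.0%. For each transcript the intervals of the libraries did not overlap, so the leading start was the upstream one in replicate 1 and the downstream one in replicate 2. As background, the upstream Grb10 promoter is the widely used maternal one, and paternal starts further down are used in the brain. The transcripts share most of their exons, and their counts are the deposited estimates of how shared reads divide.

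The Gnas locus (chr2:174284320-174346744) encodes the G protein subunit Gs alpha and, from alternative starts, other products of opposite parental origin. Along the locus the start of the maternal Nesp class comes first, then that of the paternal XL alpha s class, then the paternal exon 1A, then that of Gs alpha, which is expressed from both copies in most tissues. Gnas had 39.61 TPM in replicate 1 and 53.56 in replicate 2, from 5355 and 9830 counts. It was 1.35-fold higher in replicate 2 with intervals apart. The 4 transcripts that start 45.7 kb from the first annotated start, at the Gs alpha class, held 94.6% of the gene TPM in replicate 1 and 92.5% in replicate 2. The 6 transcripts that start 43.2 kb from it, at the exon 1A class, held 4.62% and 6.78%. The 5 transcripts of the first start and the 7 that start 13.5 kb from it were all listed at 0. Gnas-206 led in both libraries, with 54.0% and 67.5%. Gm20721, annotated on the opposite strand over the Gs alpha part, had 1.04 and 1.86 TPM, and Nespas, antisense to the first start, had 10 counts in replicate 1 and 0 in replicate 2.

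**Figure D3:**
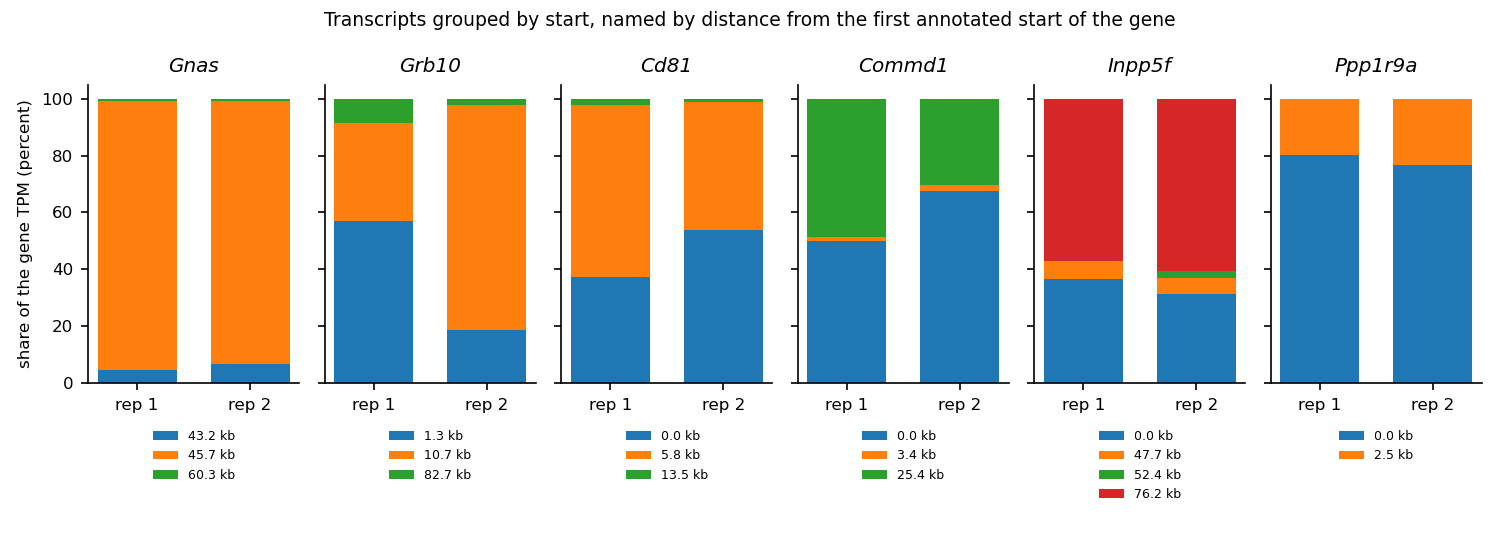
Share of the gene TPM, in percent, held by transcripts grouped by start, in replicate 1 and replicate 2, for Gnas, Grb10, Cd81, Commd1, Inpp5f and Ppp1r9a; starts are named by their distance in kb from the first annotated start and those at 0 in both libraries are left out. The Gnas bars are nearly all of 1 start in both libraries, and the main Grb10 start differs between them.

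The Dlk1-Meg3 cluster on chromosome 12 had 5 members, none detected in both libraries. Its maternal noncoding RNAs, Meg3, Rian and Mirg, are thought to form a chain of transcription that hosts many miRNAs and snoRNAs. Meg3 (chr12:109541001-109571726) had 31 counts in replicate 1 and 47 in replicate 2, or 0.44 and 0.19 TPM. Rian (chr12:109603940-109661716) had 252 and 29 counts, or 1.82 and 0.42 TPM. Mirg had 8 and 0 counts. Rian was thus the noncoding member next to Kcnq1ot1 in replicate 1, and exceeded Meg3 with intervals apart in both libraries, while Meg3 and Mirg were not ordered. In replicate 2 the Meg3 interval ended at 0.497 TPM and the Rian interval began at 0.503, while Meg3 had more counts. On the paternal side Dlk1, a membrane protein related to Notch ligands, and Rtl1, a protein derived from a retrotransposon, had 0 counts in both.

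Rian was the only imprinted gene called apart between the replicates. The call needed a mean TPM of 1 or more, a ratio past 2-fold after adding 0.1 TPM to each value, and deposited intervals that did not overlap. Of the 17 members that reached this mean 1 was called, beside 11.5% of the 10958 genes that did. Rian was 3.69-fold higher in replicate 1, with intervals of 1.91 to 2.94 TPM there and 0.503 to 1.29 in replicate 2. Both point values lay below their own intervals. In replicate 1 the reads were assigned to 6 transcripts, led by Rian-213 with 45.8% of the gene, and in replicate 2 to 3, led by Rian-211 with 61.1%. The mean effective length of Rian fell with them from 1606 to 537 nucleotides, so the difference in counts was larger than in TPM. Neutrophil markers were also higher in replicate 1, and their part in the Rian difference was not tested.

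The span between the outermost members of this cluster, 297 kb, held 89 other annotated features, of which 58 were miRNAs and 23 snoRNAs. All 58 miRNAs and all 23 snoRNAs had 0 counts in both libraries. Their effective lengths were under 5 nucleotides in both libraries, since they are shorter than most fragments, so the deposited counts cannot show whether these small RNAs were present.

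In the Snrpn-Ndn cluster on chromosome 7, the region matching the human Prader-Willi locus, 1 of 5 members was detected. Ndn (chr7:62346569-62350262), a MAGE family protein linked to growth arrest in neurons and to HSC quiescence, had 1.64 TPM in replicate 1 and 1.63 in replicate 2, from 207 and 297 counts. These were nearly the same, at 1.01-fold. Mkrn3, a ring finger protein, had 0.25 and 0.26 TPM. Snrpn, which encodes a spliceosomal protein used mainly in brain, had 14 and 68 counts, or 0.09 and 0.31 TPM. Magel2 and Snurf had 0 counts in both. For Snurf this says little, since its effective length of 45.4 and 22.4 nucleotides put 3 counts at 0.765 and 1.03 TPM. Snurf lies within Snrpn and within Gm38393, which had 0 and 41 counts, and Snrpn and Snurf were not ordered.

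The Peg10-Sgce cluster on chromosome 6 had 5 members, 2 of them detected. Ppp1r9a (chr6:4902917-5165661), neurabin, a scaffold that binds actin and protein phosphatase, had 7.07 TPM in replicate 1 and 8.84 in replicate 2. Sgce (chr6:4674350-4747207), epsilon sarcoglycan, had 3.80 and 2.88 TPM, 1.31-fold higher in replicate 1 with intervals apart. Peg10, a protein derived from a retrotransposon that starts next to Sgce on the other strand, had 19 and 5 counts, or 0.04 and 0.01 TPM. Sgce thus stood above Peg10 in both libraries, with intervals apart, although both are known as paternally expressed from the same control region. Asb4 had 0.27 and 0.72 TPM from 62 and 103 counts, and its leading transcript was the one from the first annotated start in replicate 1, with 77.8%, and one from a start 7.04 kb further in replicate 2, with 90.6%. Calcr, the calcitonin receptor, had 0 counts in both. Casd1, a neighbour outside the 44, had 11.06 and 29.80 TPM from 3570 and 6520 counts and was apart.

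Copg2 (chr6:30747554-30896794), a coat protein of Golgi vesicles, had 11.45 TPM in replicate 1 and 11.89 in replicate 2. Mest, the paternal hydrolase gene that overlaps its end, had 32 and 14 counts, or 0.34 and 0.05 TPM. Both libraries placed Copg2 far above Mest, with intervals apart. Commd1 (chr11:22896136-22982382), a regulator of copper and of NF-kB, had 12.75 and 13.33 TPM. Zrsr1 (chr11:22972005-22976496), a paternal splicing factor gene that lies in an intron of Commd1 on the other strand, had 2.40 and 4.26 TPM, 1.74-fold higher in replicate 2 with intervals apart. Commd1 stood above Zrsr1 in both libraries, with intervals apart. Commd1 is uncertain, because Gm28048, which had 5.88 and 10.74 TPM, overlaps it on the same strand and the counts of both are fractional, so reads were divided between them.

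Inpp5f (chr7:128611328-128696425), an inositol phosphatase gene, had 3.76 TPM in replicate 1 and 3.10 in replicate 2. As background, its imprinted transcripts are short ones that start inside the gene, while the full-length transcript is not imprinted. Inpp5f-208, which starts 76.2 kb from the first annotated start, held 57.1% of the gene TPM in replicate 1 and 60.7% in replicate 2, and the full-length Inpp5f-201 held 28.4% and 31.2%. By TPM the same internal start led in both libraries. Estimated counts were closer, at 447.55 and 577.55 for Inpp5f-208 and 417.68 and 563.27 for Inpp5f-201, whose lengths are 2609 and 4734 nucleotides. Inpp5f-208 lies within the span of Inpp5f-201, so how reads divide between them is an estimate. Inpp5f-203, which starts 77.2 kb from the first start, had 0 counts in both. Whether the reads came from an imprinted transcript was not tested. In Cd81 the leading transcript by TPM differed, with Cd81-204 at 33.13 and 23.31 TPM and Cd81-201 at 20.38 and 27.90. By estimated counts Cd81-201 led in both libraries, with 2360.14 and 4666.87 against 1127.49 and 1035.59 for Cd81-204. Among the 16 detected members 11 had several annotated transcripts. By TPM 7 of these had the same leading transcript in both libraries and 4, Cd81, Commd1, Grb10 and Tssc4, did not. In Commd1 too, 1 transcript led both libraries by estimated counts, Commd1-204, with 582.72 and 2670.83.

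Impact, a paternal regulator of the kinase GCN2, had 5.06 TPM in replicate 1 and 7.86 in replicate 2, 1.54-fold higher in replicate 2 with intervals apart. Trappc9 (chr15:72589620-73061204), a vesicle transport gene, had 3.71 and 3.98 TPM. Plagl1, a zinc finger factor described as a regulator of other imprinted genes, had 0 counts in replicate 1 and 48 in replicate 2, or 0.35 TPM. The transcript that led in replicate 2, of 1187 nucleotides, had 0 counts in replicate 1 and 41 in replicate 2. Its interval ended at 0.0341 TPM in replicate 1 and began at 0.240 in replicate 2. For the whole gene the intervals began at 0.591 and 0.827 TPM, above the point value of each library. They overlapped, so the difference in counts was not matched by the intervals of the gene. Such points below their own interval occurred for 18 members in replicate 1 and 21 in replicate 2, with Igf2 and Kcnq1 among them.

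The other singly placed members were near 0. Nnat, a brain proteolipid, and Nap1l5 each had 4 counts in replicate 1 and 0 in replicate 2. Nap1l4 stood above its relative Nap1l5, whose window above holds the motif 2 times, in both libraries with intervals apart. Peg3, a large zinc finger protein, had 1 count and 0 counts, and its neighbours Usp29 and Zim1 had 0 in both. Dcn, a matrix proteoglycan of stroma, and the amino acid transporter Slc38a4 also had 0 counts in both libraries. Of the 10 stromal and osteolineage genes, Col3a1 and Lum were also at 0 counts in both libraries, and 2 were detected. These were Pdgfrb, with 2.90 TPM in replicate 1 and 3.13 in replicate 2, and Bgn, with 1.92 and 3.36.

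**Figure D4:**
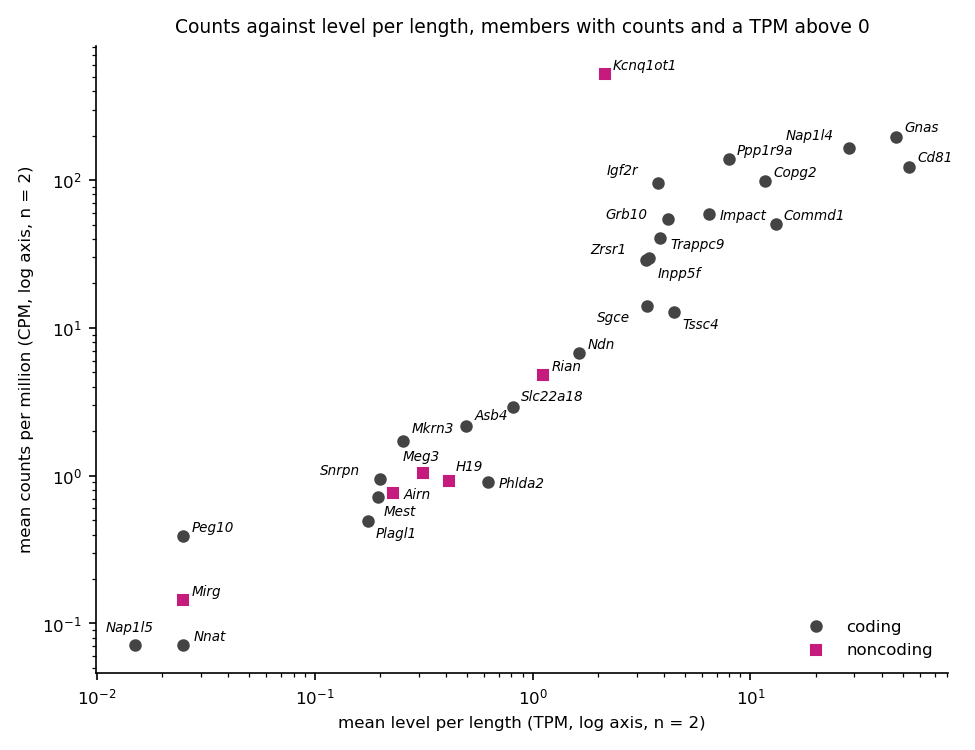
Mean CPM against mean TPM, both on log axes (n = 2), for members with counts and a mean TPM above 0; circles are coding and squares noncoding genes. Kcnq1ot1 lies far above the others, with most counts of any member at a mean of 2.15 TPM.

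Between replicates the members with a mean of at least 1 TPM were close. Leaving out Rian, the other 16 differed by 1.01-fold to 1.75-fold. Intervals were apart for 9 of the 17. That share was not computed over all genes, so it cannot be read as a trait of the members. The median log2 ratio of replicate 2 over replicate 1 was 0.06 for the members and 0.27 for all genes that reached the same mean, and the medians of the absolute ratio were 0.27 and 0.42. In TPM 10 members were higher in replicate 2 and 7 in replicate 1. By CPM, with no division by length, these numbers were 8 and 9, with Ppp1r9a and Trappc9 changing side, and the median of all genes was 0.01.

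**Figure D5:**
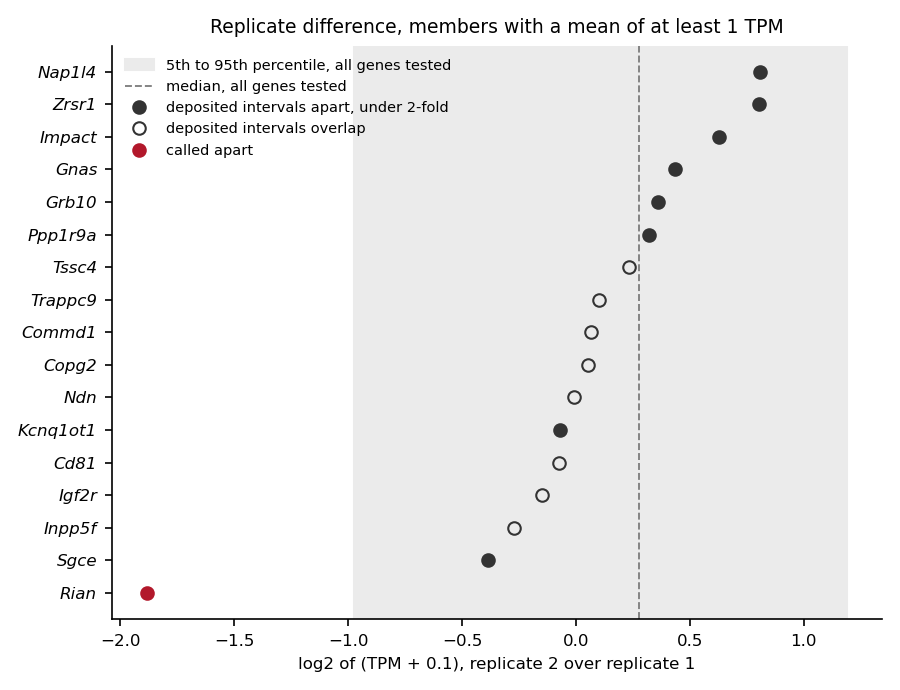
Log2 ratio of replicate 2 over replicate 1, with 0.1 TPM added, for the 17 members with a mean of at least 1 TPM. The grey band is the 5th to 95th percentile of all genes tested, from -0.98 to 1.19, and Rian at -1.88 is the only member outside it.

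Of 19 genes for the maintenance of imprints, 16 were detected, and the median gene of the list lay at 7.55 TPM in replicate 1 against 8.50 in replicate 2. The highest by mean were Trim28, the corepressor that ZFP57 recruits, with 46.66 and 64.36 TPM, Dnmt1, the maintenance DNA methyltransferase, with 30.74 and 48.19, Smchd1, a chromatin protein that silences some clusters, with 25.07 and 45.98, and the insulator protein gene Ctcf with 18.82 and 41.53. Ctcf was the 1 gene of the list called apart, beside 11.5% of all genes compared. Its counts were 4568 in replicate 1 and 8307 in replicate 2, from library totals of 27901074 and 48490188. The call thus rests on the division by length in TPM. Zfp57 itself had 2.21 TPM in replicate 1 and 1.44 in replicate 2, and Zfp445, the other zinc finger protein known to guard imprints, had 12.94 and 12.96. Ctcfl and Dppa3, known from germ cells and early embryos, had 0 counts in both.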

How the data were processed

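The data were 2 libraries of total RNA from HSC, with 69691 features per gene table and 129984 per transcript table. Per the file headers, deposited columns hold expected counts (estimates with decimals), TPM, FPKM, the percent of gene TPM that each transcript takes, and bounds of an interval on TPM, treated here as a score. The authors scaled TPM to a constant sum over all features. Sample text files name mm10 and GENCODE M4. The aligner, the counter and the use of strand are given in no source used here. Deposited intervals, of about 95%, are on another estimate than the TPM point, which can lie outside them.

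Names and positions came from GENCODE M21 by identifier without version (42462 genes). Detection, the call of apart and the ordering of pairs (the same direction and no overlap of intervals, in both libraries) used the rules given above; ratios added 0.1 TPM and levels were log2 (TPM + 1). Starts within 1000 nucleotides were grouped. No p-value was computed, since 2 libraries in 1 group leave no spread for a contrast. The members and lists were chosen with earlier results of these data known. Per-library values are given for detected and noncoding members, those called apart and those in a pair, and from the 3 further lists the 4 highest and those at 0 counts; Asb4, Mkrn3, Magel2, Plagl1, Nnat, Zfp57, Zfp445, Cdkn1c and the neighbours of a cluster were added after seeing values. The alternatives were other units, thresholds, pseudocounts, scalings with edgeR 4.0.16 and DESeq2 1.42.0 on rounded counts, and each library alone. 1 marker list is not reported here. Only the rule for the call of apart was tested on simulated data. These were random counts scaled to the library total, with intervals from the counts, and not TPM with the deposited intervals. Detection, pairs, transcripts and starts were not simulated. Tools were Python 3.11.15, pandas 2.3.3, numpy 2.4.6, scipy 1.17.1, matplotlib 3.10.9 and R 4.3.3.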

Additional observations from a re-analysis of the deposited data

How the results depend on the processing

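No paired analysis was possible because there was 1 group. The 16 detected members stayed detected with posterior mean TPM (18 members), FPKM (18), TPM rescaled over protein-coding genes (21), CPM (19) and a threshold of 0.1 TPM (24). Replicate 2 alone gave 16 and replicate 1 alone 17. At least 10 counts in both libraries gave 26, beside 32.5% of all genes. Rian was called apart in every alternative for that call. The number apart was 4 of 21 with FPKM (beside 14.6% of all genes compared), 5 of 26 with TPM over protein-coding genes (17.4%), 5 of 27 with a mean of at least 0.1 TPM (17.8%) and 5 of 44 without a filter (6.97%), which added Asb4, H19, Phlda2 and, except with FPKM, Snrpn. It was 4 of 17 at 1.5-fold (31.5%), which added Impact, Nap1l4 and Zrsr1. The median level of 0.37 on the log2 (TPM + 1) scale became 0.66 with posterior means, 0.87 with FPKM, 1.38 with TPM over protein-coding genes, 1.04 with CPM and -1.36 with a pseudocount of 0.1. It was 0.36 in replicate 2 alone and 0.37 in replicate 1 alone. The median log2 replicate difference of 0.06 became -0.26 with TPM over protein-coding genes, where all genes had -0.07. With FPKM it was -0.15, with CPM -0.10, with TMM -0.11 and with DESeq2 size factors -0.10, so its sign rests on the TPM scaling. None of the ordered gene pairs turned direction in the mean of both libraries or, in TPM, in either library alone. Within replicate 2, however, Meg3 at 0.969 CPM stood above Rian at 0.598. Among pairs that were not ordered, Snrpn over Snurf went from 1.48 to -0.45 on the log2 scale with posterior means, and Slc22a18 over Phlda2 from 0.50 to -0.25 in replicate 2 alone. The size of pair ratios moved by more than the spread between replicates in 37 of 80 comparisons; Nap1l4 over Nap1l5, with Nap1l5 at 4 and 0 counts, was 7.90 with 0.1 TPM added, 4.79 with 1 TPM added and 10.01 by CPM. The depth limits the low members: 14 had 1 to 99 counts in replicate 1 and 10 in replicate 2, and small RNAs shorter than the fragments could not be counted. The cause of each change was not tested.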

Other observations

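Of 30 further imprinted genes outside the 44 that matched the tables, 13 were detected. The highest by mean were Tspan32, a tetraspanin of blood cells, with 23.21 TPM in replicate 1 and 19.19 in replicate 2, Casd1, a sialic acid acetyltransferase gene, with 11.06 and 29.80, H13, signal peptide peptidase, with 16.80 and 21.58, and Ube3a, a ubiquitin ligase imprinted in neurons, with 16.11 and 19.53. Peg12, Osbpl5 and Casd1 were apart between replicates, all higher in replicate 2 by TPM, beside 11.5% of all genes compared. How many of the 30 reached the mean needed for the call was not counted. Counts before scaling were 125 and 437 for Peg12, 448 and 328 for Osbpl5, and 3570 and 6520 for Casd1. Osbpl5 thus had fewer counts in replicate 2, the larger library, so its direction rests on the division by length. The median log2 ratio of all genes compared, 0.27, was also toward replicate 2. Dio3, Ddc, Tfpi2, Dlx5, Klf14, Gpr1, Kcnk9, Slc22a2, Ins2, Th and Cobl had 0 counts in both libraries. Within the span of the Peg10-Sgce cluster, Bet1 had 7.93 and 10.33 TPM, Pon2 3.70 and 7.03, and Pon3 2.99 and 5.33. Gng11, with 4.11 and 1.28 TPM, and the pseudogene Gmfg-ps, with 4.92 and 1.65, were apart there in the other direction, higher in replicate 1.

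The snoRNA Gm23297, which lies within Nap1l4, had 473 counts in replicate 1 and 67 in replicate 2. It is 127 nucleotides long and its effective length was 4.99 and 1.09 nucleotides, so its listed level of 1097.43 and 471.74 TPM rests on almost no usable length.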
